A study of Caenorhabditis elegans with 16 samples.

Results

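In a test pooled over WT animals and *osm-3* mutants, 360 of the 4115 genes tested differed with tunicamycin (TM), in the same direction in both genotypes. These genes had an adjusted p below 0.05 over all 8 pairs of a TM and a vehicle library, and their mean difference had the same sign in both genotypes. Expression was higher with TM for 204 of them and lower for 156. All 360 genes past the threshold had the same sign in both genotypes, so the second condition removed none. This was nearly fixed by the test, which counts a difference between the genotypes' responses as spread, so that genes with opposite signs could hardly pass. With a TM effect fitted for each genotype and the 2 averaged, 617 genes passed, of which 24 had opposite signs. The libraries came from whole *C. elegans* at day 1 of adulthood and fell into 4 groups of 4 biological replicates, namely *osm-3(dh441)IV* mutants on TM, *osm-3(dh441)IV* mutants on control plates without TM (vehicle), WT on TM and WT on vehicle. TM was given at 10 µg/mL for 6 hr. The *osm-3(dh441)* allele came from a mutagenesis screen and is a mutation in a kinesin gene that sensory cilia need, and all mutant libraries carry this single allele. Replicates of the same number within a genotype formed a pair, and a difference is the TM value minus the vehicle value of that pair.

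TM blocks the first step of the synthesis of the lipid-linked sugar that is transferred to asparagine residues of nascent proteins in the endoplasmic reticulum (ER). Proteins without their N-glycans fold poorly, and the unfolded protein response (UPR) of the ER then raises chaperones, disulfide isomerases and enzymes of phospholipid synthesis. TM is also a foreign compound, and worms meet such compounds in the intestine with cytochromes P450, which oxidize them, with UDP-glucuronosyltransferases and glutathione S-transferases, which attach sugars or glutathione, and with membrane pumps such as the P-glycoproteins (PGPs).

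Reads on named genes numbered 4173301 to 8144875 per library. The genes analysed here were 8347, nearly all with sequence names before F46 in the alphabet, and *osm-3* itself was not among them, so the mutation could not be checked in these values. The gene lists and families below, the *pgp* genes included, therefore cover only their members among these genes and not whole families. WT TM replicate 4 stood apart with reads on 8231 genes, against 7094 to 7726 in the other 15 libraries. Without the pair of that library 138 shared genes were higher and 48 were lower, of which 135 and 47 were among the 204 and 156. Markers of sperm, oocytes, germline, intestine, muscle, neurons, epidermis and pharynx were all present, with no marker at 0 in every library. Sperm markers summed to 520 to 1105 CPM, a share of the library's reads, in *osm-3* TM libraries and 602 to 918 in *osm-3* vehicle libraries, against 168 to 245 in WT TM and 182 to 248 in WT vehicle, and none of the 12 tested was shared. Of the 7 muscle markers, *unc-54* and *unc-89* were shared and lower with TM, as was 1 of 3 germline markers, *cgh-1*, of which *unc-54* and *cgh-1* were not called without *osm-3* replicate 1, 2 or 3 or WT replicate 2 or 4 (adjusted p up to 0.081 and 0.11) and *cgh-1* also not without WT replicate 3. The 7 muscle markers had a median difference of −0.02 log2 units, and 3 of them were positive. *unc-89* and *unc-54* are long genes, with exons of 25942 and 6204 bases, and *unc-89* was not called after the correction for gene length given below. The 6 oocyte and embryo markers had a median of −0.22, with none positive and none called. The 3 germline markers had a median of −0.31, with none positive. The part of cell composition in any result was not tested. In whole animals, fewer cells of a type and less RNA per cell cannot be told apart.

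The first question was which genes TM moved regardless of the genotype. The 204 higher genes were 4.96% of those tested and the 156 lower genes 3.79%, or 8.75% in either direction, and 1211 genes had an unadjusted p below 0.05. Values are variance-stabilized and on a log2 scale that compresses the changes of genes with few reads, and they are given below as log2 differences with their standard errors (SE). The normalized counts given beside them are read counts divided by the size factor of the library. The median difference was 0.28 among the higher genes and −0.30 among the lower genes, against −0.03 over all genes tested, where the median SE was 0.06. Most shared changes were small. The difference was larger than 1 log2 unit in 3 higher genes and 1 lower gene, and larger than 0.5 in 32 and 8. All 8 pairs moved the same way in 142 of the higher and 53 of the lower genes, together 195 of 360, while 181 of all genes tested (4.4%) moved up and 92 (2.24%) moved down in all 8 pairs (273, or 6.63%, in all), and the remaining shared genes had at least 6 of 8 pairs in the called direction. Without any 1 of the 8 pairs in turn, 146 of the 360 genes (108 higher and 38 lower) kept their call, and where a gene named below did not, the pairs are given. With the numbers of the pairs disregarded, 52 genes were higher and 16 lower. Without regard to any threshold, 2758 genes (67%) had the same sign in both genotypes. With the trend over gene length taken out of each library, 240 genes were higher and 114 were lower, so that the share of higher genes among the calls was 67.8%, against 56.7% without this correction.

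**Figure D1:**
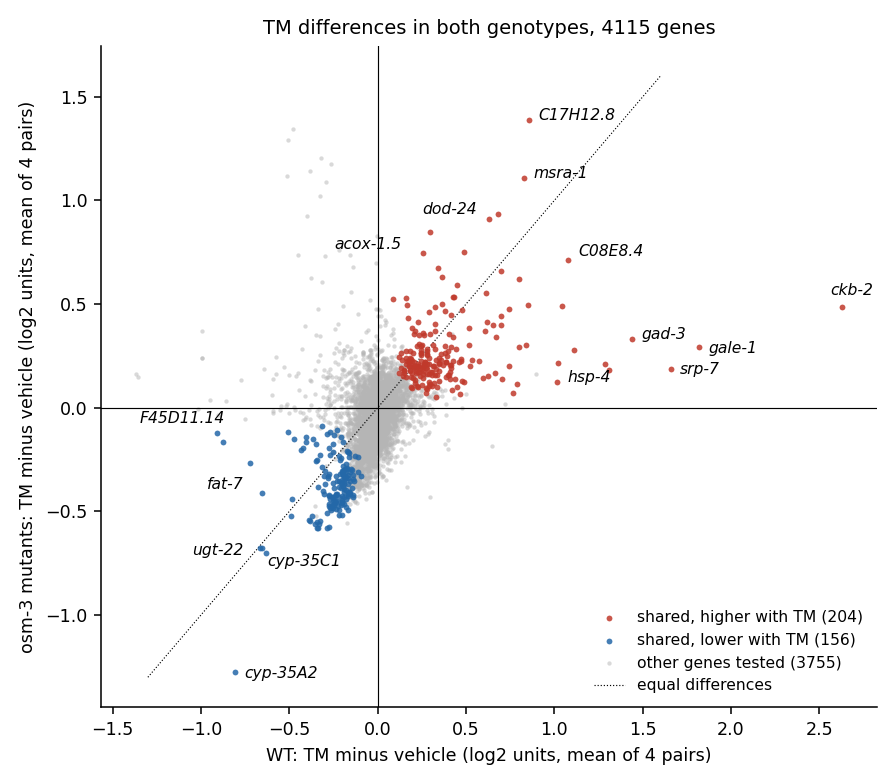
Mean TM minus vehicle difference of each gene tested, in WT animals on the x axis and in *osm-3* mutants on the y axis (log2 units, 4 pairs each). Red and blue points are the 204 higher and 156 lower shared genes, grey points the other 3755 genes, and the dotted line marks equal differences. *cyp-35C1* and *ugt-22* lie on that line, *msra-1*, *C17H12.8* and *dod-24* lie near or above it, and *ckb-2*, *gale-1* and *srp-7* lie far to its right, where the WT difference was the larger.

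A gene can pass a pooled test mainly through 1 genotype. A test that took the larger of the 2 within-genotype p-values and adjusted it over all genes was passed by 8 genes (0.194%), all of which were shared. Of these, 6 were higher with TM, *msra-1*, *dod-24*, *C17H12.8*, *C08E8.4*, *skr-3* and *C34H4.2*, and 2 were lower, *cyp-35C1* and *ugt-22*. An unadjusted p below 0.05 in each genotype was reached by 154 of the higher and 81 of the lower shared genes, against 243 (5.91%) of all genes in the same direction. The count of 8 moved with the pairing and with single pairs. It was 0 with no replicate block, 0 with the replicate numbers shared across the genotypes as 1 block (78 and 193 genes at an unadjusted p below 0.05 in each genotype), 0 without WT replicate 2 or 3, 2 without *osm-3* replicate 1, 3 without *osm-3* replicate 3, 6 without WT replicate 1, and 14, 16 and 25 without WT replicate 4, *osm-3* replicate 4 and *osm-3* replicate 2. All 8 genes kept their pooled call without any 1 pair.

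*msra-1* encodes a methionine sulfoxide reductase, which restores oxidized methionine in proteins (chromosome II, 7363220 to 7364040, WBcel235). It had 6362, 6677, 7755 and 5046 normalized counts in *osm-3* TM libraries and 2232, 3953, 2899 and 2599 in *osm-3* vehicle libraries. In WT it had 6926, 8198, 9190.2 and 3465 with TM and 3680.1, 4238, 5017 and 2108 with vehicle. The *osm-3* groups did not overlap, and in WT only TM replicate 4 lay within the vehicle range, where its own vehicle library was the lowest. The log2 difference was 1.11 ± 0.11 in *osm-3* and 0.83 ± 0.11 in WT (SE, 4 pairs each), and 0.97 ± 0.09 pooled (limma, adjusted p = 0.00022), up in 8 of 8 pairs.

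*dod-24* encodes a CUB-like domain protein that rises on pathogens and responds to the transcription factor DAF-16 (chromosome IV, 12940106 to 12941354). Normalized counts were 310.3, 271, 305 and 239 in *osm-3* TM and 70.4, 126, 73.2 and 73.6 in *osm-3* vehicle. They were 558, 870.4, 939 and 497 in WT TM and 395, 387, 514 and 281 in WT vehicle. All *osm-3* vehicle libraries lay below all WT vehicle libraries, and the mean count with TM was 3.28-fold that with vehicle in *osm-3* and 1.82-fold in WT. The pooled difference was 0.77 ± 0.08 (adjusted p = 0.00034), and the 2 genotypes' differences on the log2 scale, 0.91 and 0.63, did not pass the test against each other (adjusted p = 0.46). That scale compresses a change more at fewer reads, and thus more in *osm-3* than in WT for this gene.

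*C17H12.8*, another CUB-like domain gene of the pathogen response (chromosome IV, 6818703 to 6820575), had 1777, 1947, 2443 and 1562 normalized counts in *osm-3* TM and 541, 1213, 504 and 403 in *osm-3* vehicle. In WT it had 3829, 4658, 5306 and 2327 with TM and 2228, 2278, 2966 and 1138 with vehicle. It was apart in the mutants and overlapped in WT only through replicate 4, and the pooled difference was 1.12 ± 0.13 (adjusted p = 0.00072). *C08E8.4* had means 2.56-fold those of vehicle in *osm-3* and 5.11-fold in WT, with a pooled difference of 0.90 ± 0.10 (adjusted p = 0.00065). *skr-3*, a homolog of the Skp1 subunit of SCF ubiquitin ligases, differed by 0.52 ± 0.06 (adjusted p = 0.00065), and *C34H4.2* by 0.68 ± 0.08 (adjusted p = 0.0011). Next to *C34H4.2* on chromosome IV, *C34H4.1*, which was picked after its values were seen, was also higher (0.41 ± 0.05, adjusted p = 0.0011). Outside these 8, *B0205.13* had 1414, 1691, 2876 and 1439 normalized counts in *osm-3* TM and 521, 1317, 1039 and 668 in *osm-3* vehicle, and 997, 866, 1174 and 87.7 in WT TM and 292, 508, 875 and 36.6 in WT vehicle. Its *osm-3* groups were apart, and the WT groups overlapped, with both libraries of replicate 4 far below the rest (0.81 ± 0.12 pooled, adjusted p = 0.0017). Among genes lower in every pair, *F42A10.7* differed by −0.49 ± 0.10, *set-9* by −0.46 ± 0.09 and *F22G12.5* by −0.43 ± 0.09 (adjusted p = 0.009, 0.0072 and 0.011).

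**Figure D2:**
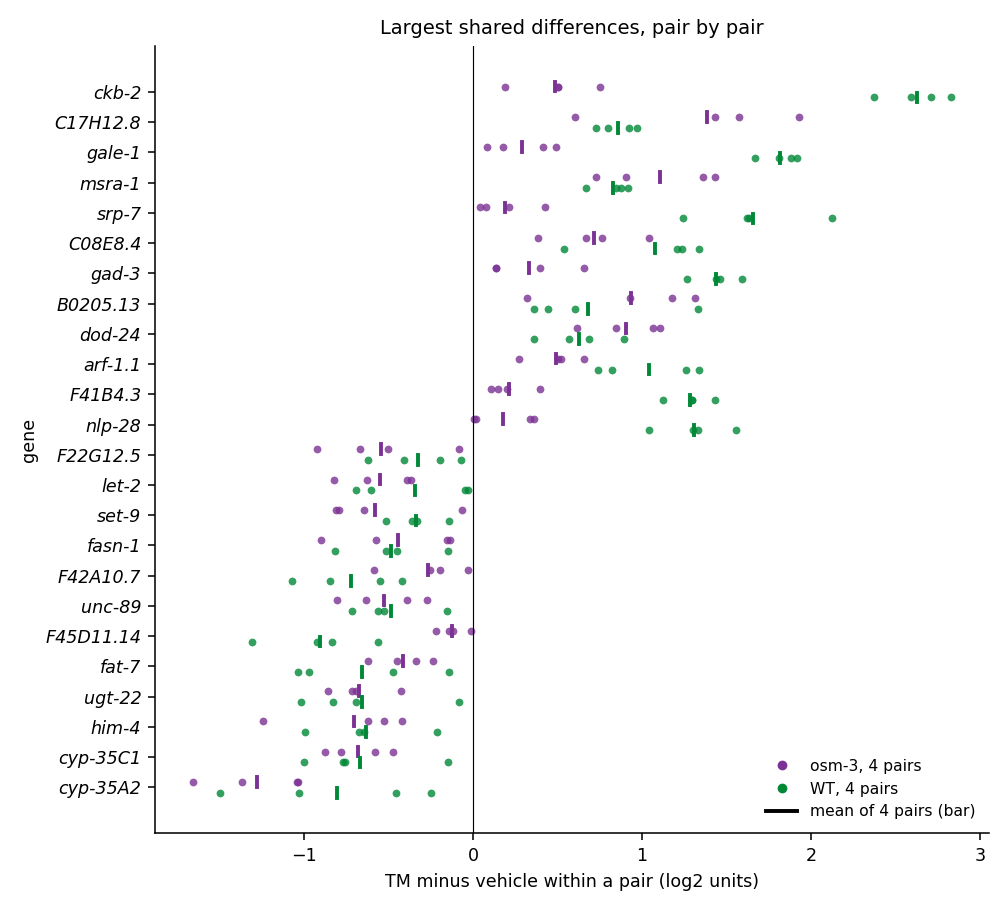
TM minus vehicle difference within each pair (x axis, log2 units) for shared genes with all 8 pairs in 1 direction (y axis), 12 with the largest increase and 12 with the largest decrease. Purple points are the 4 *osm-3* pairs and green points the 4 WT pairs, with a bar at each mean. The WT points of *ckb-2*, *gale-1*, *srp-7*, *gad-3*, *F41B4.3* and *nlp-28* lie to the right of all their *osm-3* points, whereas the points of both genotypes overlap for *msra-1*, *dod-24*, *cyp-35C1* and *ugt-22*.

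Detoxification genes moved in both directions. Of 21 cytochromes P450 tested, 6 were higher and 2 were lower (28.6% and 9.5%, against 4.96% and 3.79% of all genes tested). The 2 lower ones had the largest decreases of all shared genes in which every pair fell. *cyp-35A2* encodes a P450 that many foreign compounds induce (chromosome V, 7362319 to 7364182). It had 159, 169, 124 and 64 normalized counts in *osm-3* TM and 492, 517, 563 and 508 in *osm-3* vehicle. In WT it had 109, 127, 218 and 224 with TM and 376, 645, 358 and 295 with vehicle. In both genotypes every TM library lay below every vehicle library, and the mean vehicle count was 4.03-fold that with TM in *osm-3* and 2.47-fold in WT. The pooled difference was −1.04 ± 0.13 (adjusted p = 0.0011).

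*cyp-35C1*, of the same P450 family (chromosome V, 13896663 to 13898487), had 84.2, 91.6, 78.4 and 47.2 normalized counts in *osm-3* TM and 168, 204.6, 231 and 190.2 in *osm-3* vehicle. The WT counts were 84.3, 108, 127 and 229.7 with TM and 238, 363, 321 and 271 with vehicle. Groups were apart in both genotypes, and the differences of −0.68 ± 0.11 in *osm-3* and −0.67 ± 0.11 in WT (SE, 4 pairs each) were nearly equal, the mutant difference minus the WT difference being −0.01 ± 0.15. The 6 higher P450 genes were *cyp-33C4*, *cyp-33C7*, *cyp-33E2*, *cyp-13A12*, *cyp-14A5* and *cyp-43A1*, with differences of 0.25 to 0.39. *cyp-14A5* differed between the genotypes, with 0.15 in *osm-3* and 0.63 in WT (−0.47 ± 0.11, adjusted p = 0.036). *cyp-13A12* had mean counts 1.88-fold those of vehicle in both genotypes, and *cyp-43A1* was not called without *osm-3* replicate 3 or WT replicate 2 or 4 (adjusted p up to 0.065). The median over the 21 P450 genes was 0.07, and 0.01 to 0.15 under the alternatives.

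Among 25 UDP-glucuronosyltransferases, 5 were higher and 2 were lower (20% and 8%, against 4.96% and 3.79% of all genes tested). *ugt-1* had 317, 328, 342 and 201 normalized counts in *osm-3* TM, 111, 173, 143 and 123 in *osm-3* vehicle, 188, 248, 236 and 206 in WT TM and 136, 126, 172 and 119.9 in WT vehicle. Its groups were apart in both genotypes, and it differed by 0.50 ± 0.07 (adjusted p = 0.0011). *ugt-2*, the next gene on chromosome V, differed by 0.48 ± 0.07 (adjusted p = 0.0011), and *ugt-7* (0.24), *ugt-26* (0.18) and *ugt-44* (0.30) were also higher. *ugt-22* fell to 1285, 1195, 1239 and 884 normalized counts in *osm-3* TM, against 1796, 2048, 2162 and 1757 in *osm-3* vehicle, and to 733, 1028, 1115 and 1465 in WT TM, against 1674, 1977, 1922 and 1561 in WT vehicle. Its groups were apart in both genotypes and its differences of −0.67 in *osm-3* and −0.66 in WT differed by −0.02 ± 0.17, with −0.66 ± 0.09 pooled (adjusted p = 0.0011). *ugt-51* was lower as well (−0.18 ± 0.05, adjusted p = 0.039). *ugt-26* was not called without *osm-3* replicate 1 or WT replicate 2, *ugt-44* was called only without WT replicate 1, and *ugt-51* was not called without *osm-3* replicate 1, 2 or 4 or WT replicate 2 or 4 (adjusted p up to 0.064, 0.13 and 0.11). Of 5 glutathione S-transferases, 2 were higher (40%, against 4.96% of all genes tested), *gst-22* (0.34 ± 0.05, adjusted p = 0.0011) and *gst-6* (0.14 ± 0.04, adjusted p = 0.043). The second was not called after the length correction (adjusted p = 0.075) or without any *osm-3* pair or WT replicate 2 or 4 (adjusted p up to 0.13). No member of 12 short-chain dehydrogenases and aldo-keto reductases was called.

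PGPs and their relatives are the pumps that carry foreign compounds out of the cell. Of 20 ABC transporters tested, 1 was higher and 2 were lower (5% and 10%, against 4.96% and 3.79% of all genes tested). The share of higher members was thus near that of all genes. *pgp-5* had 252, 220.3, 259 and 163 normalized counts in *osm-3* TM and 102, 194, 131 and 85.1 in *osm-3* vehicle, and 239, 267, 283 and 295 in WT TM and 160.2, 122, 181 and 204 in WT vehicle. Its groups were apart in WT and overlapped in the mutants through vehicle replicate 2, and the difference was 0.45 ± 0.08 in *osm-3* and 0.42 ± 0.08 in WT (SE, 4 pairs each; 0.43 ± 0.06 pooled, adjusted p = 0.0011). The 2 lower members, *pgp-2* (−0.19 ± 0.05, adjusted p = 0.026) and *mrp-4* (−0.34 ± 0.09, adjusted p = 0.042), were not called without *osm-3* replicate 1 or 2 or WT replicate 2 or 4 (adjusted p up to 0.081 and 0.11), the second also not without *osm-3* replicate 3 or WT replicate 3, nor after the length correction (−0.05 and −0.19, adjusted p = 0.44 and 0.07). The other *pgp* genes tested, *pgp-4*, *pgp-9*, *pgp-10*, *pgp-11*, *pgp-12*, *pgp-13* and *pgp-14*, had pooled differences of −0.06 to 0.23 and were not called. After the length correction, which was chosen after seeing the data, *pgp-10* (0.21) and *pgp-12* (0.24) were called in the pooled test (adjusted p = 0.038 and 0.034). Before it, the difference of *pgp-12* was −0.02 in *osm-3* and 0.23 in WT, and that of *pgp-10* was 0.04 and 0.12. *nhr-8*, a nuclear hormone receptor that worms need to withstand toxic compounds, had 386, 349, 446 and 332 normalized counts in *osm-3* TM, 292, 341, 231 and 248 in *osm-3* vehicle, 383, 502, 535 and 398 in WT TM and 341, 343, 471 and 283 in WT vehicle. The groups overlapped in both genotypes, but TM exceeded vehicle in 8 of 8 pairs, with differences of 0.30 ± 0.09 in *osm-3* and 0.24 ± 0.09 in WT (SE, 4 pairs each; 0.27 ± 0.06 pooled, adjusted p = 0.017). The call of *nhr-8* was lost without WT replicate 2 or 4 (0.25 and 0.26, adjusted p = 0.061 and 0.0502), and it was the 1 called gene of 43 nuclear hormone receptors tested.

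**Figure D3:**
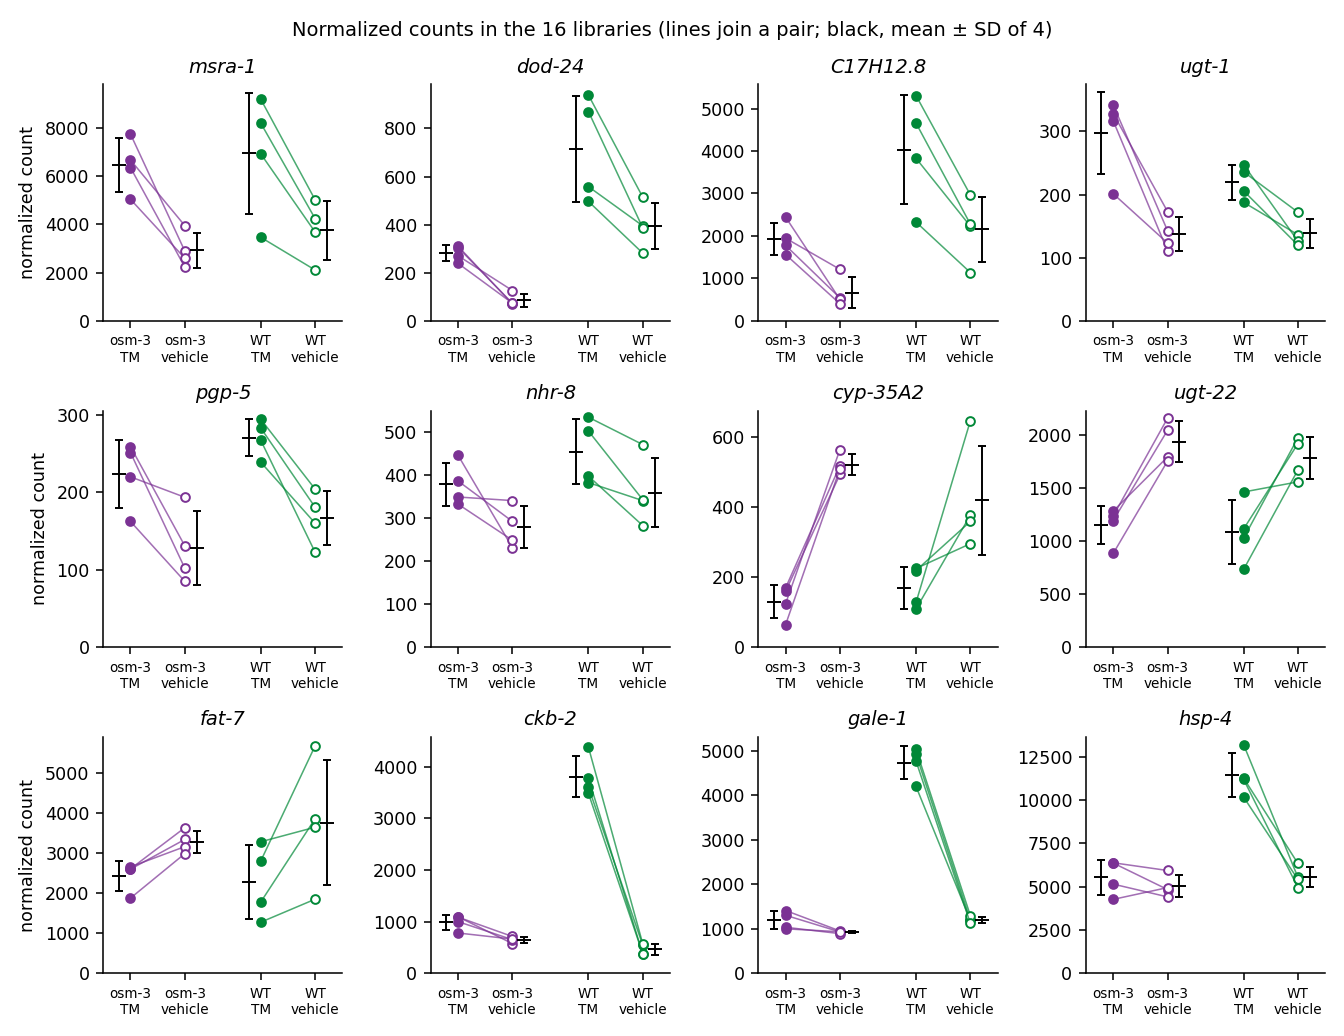
Normalized counts of 12 genes in the 16 libraries (y axis, from 0), with *osm-3* TM, *osm-3* vehicle, WT TM and WT vehicle from left to right. Lines join the TM and vehicle library of a pair, and black marks show mean ± SD of 4. The lines of *msra-1*, *dod-24*, *C17H12.8*, *ugt-1*, *pgp-5* and *nhr-8* descend towards vehicle in both genotypes and those of *cyp-35A2*, *ugt-22* and *fat-7* ascend, whereas *ckb-2*, *gale-1* and *hsp-4* stand higher in WT TM libraries than in all the other libraries.

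Genes of the defence against pathogens were among those higher with TM. Of 37 immune effectors and genes associated with DAF-16 that were tested, 13 were higher and 1 was lower (35.1% and 2.70%, against 4.96% and 3.79% of all genes tested). Their median difference was 0.10 (0.16 in *osm-3* and 0.09 in WT), against −0.03 over all genes. This list was drawn up with earlier results of these data known. Besides *dod-24* and *C17H12.8* the higher members included *dod-20* (0.47 ± 0.07, adjusted p = 0.0018), which had mean counts 1.61-fold those of vehicle in *osm-3* and 1.52-fold in WT, *C49G7.7* (0.49 ± 0.06, adjusted p = 0.0011), *cld-9* (0.35), *irg-2* (0.28), an infection response gene, and the lysozyme gene *ilys-4* (0.21). Another lysozyme gene, *ilys-5*, was the lower member (−0.31 ± 0.08, adjusted p = 0.03). *nlp-28*, *nlp-29* and *nlp-31* encode small antimicrobial peptides of the epidermis, lie side by side on chromosome V, and were higher by 0.74, 0.35 and 0.28. *nlp-27*, of the same cluster, had −0.31 pooled and was not called, its difference being 0.37 in *osm-3* and −0.99 in WT. *nlp-28* was not called without WT replicate 2 or 4 (0.66 and 0.70, adjusted p = 0.062 and 0.055). *ilys-4* was not called without *osm-3* replicate 1, 3 or 4 or WT replicate 2 or 3, nor *ilys-5* without *osm-3* replicate 1 or 4 or WT replicate 2, 3 or 4 (adjusted p up to 0.11 and 0.081). Of the other higher members, *C32H11.4* was not called without *osm-3* replicate 1, 3 or 4 or WT replicate 3 or 4 (adjusted p up to 0.062). *fipr-21* and *F01D5.5* lost their call without *osm-3* replicate 1 or 3 or WT replicate 2, 3 or 4. The first also lost it without *osm-3* replicate 2 and the second without *osm-3* replicate 4 (adjusted p up to 0.10 and 0.11).

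Of 24 C-type lectins tested only *clec-41* was called (0.43 ± 0.08, adjusted p = 0.009), and none of 7 genes of the p38 MAPK pathway was, among which *vhp-1* (0.23, adjusted p = 0.06) and *tir-1* (0.17, adjusted p = 0.11) had the smallest p-values and were called after the length correction (0.32 and 0.34, adjusted p = 0.0054 and 0.006). Families outside the lists were looked at after their values were seen. Of 27 *pals* genes listed, 6 passed the filter. Of these, 5 were called higher (83.3%, against 4.96% of all genes tested). They were led by *pals-24* (0.58 ± 0.08, adjusted p = 0.0011) and its neighbour *pals-23* (0.45 ± 0.09, adjusted p = 0.0083), both of which kept their call without any 1 pair. *pals-32* was not called without *osm-3* replicate 3 or WT replicate 2 (adjusted p up to 0.067). With 1 pair left out, *pals-34* was called only when it was WT replicate 1 (adjusted p otherwise up to 0.093). Of 14 *fbxa* genes tested, which encode F-box proteins of ubiquitin ligases, 6 were higher (42.9%, against 4.96% of all genes tested) and none was lower. Of these, *fbxa-156* was not called without *osm-3* replicate 1 or 4 or WT replicate 2, 3 or 4 (adjusted p up to 0.098). *fbxc-2* and *fbxc-4* had identical values (0.30), as had *fbxc-1* and *fbxc-5* (0.22), so that each of these pairs of shared genes cannot be told apart in the counting.

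UPR genes passed the pooled test with unequal differences in the 2 genotypes. Of 15 genes of ER folding and the UPR tested, 7 were shared and higher (46.7%, against 4.96% of all genes tested) and none was lower. The median difference was 0.37, made of 0.12 in *osm-3* and 0.72 in WT. The difference between the genotypes was itself past the threshold in 8 of the 15, against 66 (1.6%) of all genes. *ckb-2*, a choline kinase of phosphatidylcholine synthesis and a known UPR target, had 1094, 1088, 1001 and 780.3 normalized counts in *osm-3* TM and 576, 713, 652 and 662 in *osm-3* vehicle, against 3486, 3607, 4380.4 and 3779 in WT TM and 378, 545, 569 and 374 in WT vehicle. The groups were apart in both genotypes, with means 1.52-fold those of vehicle in *osm-3* and 8.18-fold in WT. The mutant response minus the WT response was −2.14 ± 0.13 log2 units (adjusted p = 7e-07). *hsp-4*, which encodes the ER chaperone BiP, had 6366, 5149, 4267 and 6382 normalized counts in *osm-3* TM, 4837, 4411, 4947 and 5936 in *osm-3* vehicle, 13208, 10177, 11199 and 11274 in WT TM and 5537, 5417, 4950.1 and 6340.2 in WT vehicle. Its *osm-3* groups overlapped (0.12 ± 0.10, SE over 4 pairs) and its WT groups were apart (1.02 ± 0.10), and the pooled call (0.57 ± 0.14, adjusted p = 0.029) was lost without WT replicate 2, 3 or 4 or *osm-3* replicate 1, with differences of 0.49 to 0.60.

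The co-chaperone gene *dnj-7* (0.57 ± 0.09) and the disulfide isomerase genes *pdi-6* (0.69 ± 0.13) and *C14B9.2* (0.62 ± 0.12) had TM libraries above all vehicle libraries in both genotypes, also with larger differences in WT. *arf-1.1*, a small GTPase gene and UPR target, had mean counts 3.25-fold those of vehicle in *osm-3* and 4.46-fold in WT (0.76 ± 0.10, adjusted p = 0.0011), and its difference between genotypes did not pass the threshold (−0.55 ± 0.14, adjusted p = 0.063). Its mean vehicle count was 20.1 in *osm-3* and 52.5 in WT, so the log2 scale compressed the *osm-3* change more. *pdi-2*, picked after its values were seen, was called (0.42 ± 0.12, adjusted p = 0.049) but not without *osm-3* replicate 1 or 4 or WT replicate 2, 3 or 4 (adjusted p up to 0.14), and its difference was 0.07 in *osm-3* and 0.77 in WT (−0.70 ± 0.15 between them, adjusted p = 0.024). The second BiP gene, *hsp-3*, was not called (0.37 ± 0.12, adjusted p = 0.067), and was called after the length correction (0.44, adjusted p = 0.017). Over all shared genes, 17 of 360 responded differently in the 2 genotypes. Among the 204 higher genes 15 did so, 14 with the larger difference in WT, and these included *gale-1*, *gad-3*, *F41B4.3*, *nlp-28* and the serpin gene *srp-7*, of which the last 2 were not called without WT replicate 2 or 4 (0.66 and 0.70, and 0.82 and 0.88, adjusted p up to 0.062 and 0.079). The numerical difference was larger in WT for 140 of the 204 higher genes and larger in *osm-3* for 128 of the 156 lower genes.

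Sugar nucleotides are the substrates of glycosylation. Of 8 genes of hexosamine and UDP-sugar synthesis only *gale-1* was called, the epimerase that interconverts the UDP forms of glucose and galactose and of their N-acetylated amino sugars. It had 1411, 1304, 1035 and 999 normalized counts in *osm-3* TM and 952, 930.4, 891 and 934 in *osm-3* vehicle, against 4203, 4931, 5037 and 4774 in WT TM and 1191, 1195, 1298 and 1123 in WT vehicle. The groups were apart in both genotypes, with a smaller difference in the mutants (0.29 ± 0.08) than in WT (1.82 ± 0.08; SE, 4 pairs each), and the difference of −1.53 ± 0.12 between them passed the threshold (adjusted p = 5.9e-06). Of 13 genes of N-glycan assembly and transfer only *bre-1* was called, which encodes an enzyme of GDP-fucose synthesis. Its counts were 642, 532, 432 and 303 in *osm-3* TM, 269, 320.0, 281 and 256 in *osm-3* vehicle, 601, 573, 765 and 795 in WT TM and 288, 302, 329 and 278 in WT vehicle, up in 8 of 8 pairs by 0.67 ± 0.09 (adjusted p = 0.0011). The median of the N-glycan list was −0.01, and the lists of ER-associated degradation (12 tested, *hecd-1* lower) and of ER to Golgi transport (12 tested, *C34B2.10* higher) had 1 called gene each, neither of which was called without *osm-3* replicate 1, 2 or 3 or WT replicate 2 or 4 (adjusted p up to 0.092 and 0.097), nor *C34B2.10* without WT replicate 3. *hecd-1* was not called after the length correction either (−0.13, adjusted p = 0.097).

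Of 28 genes of fatty acid oxidation, 4 were higher and 1 was lower (14.3% and 3.57%, against 4.96% and 3.79% of all genes tested). *acox-1.5*, an acyl-CoA oxidase of peroxisomes, had 824, 805, 599 and 425 normalized counts in *osm-3* TM and 335, 532, 236 and 219 in *osm-3* vehicle, and 889, 1068, 1129.6 and 889 in WT TM and 735, 793, 969 and 707 in WT vehicle. Groups overlapped in both genotypes and every pair was higher with TM (0.50 ± 0.09, adjusted p = 0.0055), with 0.75 in *osm-3* and 0.26 in WT. The enoyl-CoA hydratase genes *ech-9* (0.33 ± 0.06, adjusted p = 0.0077) and *ech-3* (0.26 ± 0.05, adjusted p = 0.011) and the acyl-CoA dehydrogenase gene *acdh-1* (0.22 ± 0.06, adjusted p = 0.0498) were also higher, whereas *acox-1.2* was lower (−0.29 ± 0.08, adjusted p = 0.042). The last 2 were called with 1 pair left out only when it was WT replicate 1 (adjusted p otherwise up to 0.15 and 0.081), and *acox-1.2* was not called after the length correction (−0.24, adjusted p = 0.12). The median of the list was −0.04, close to that of all genes.

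Of 13 genes of fatty acid synthesis and lipid storage, none was higher and 2 were lower (15.4%, against 3.79% of all genes tested). *fat-7*, a desaturase that makes oleic acid, fell to 2600.0, 2657, 2607 and 1876 normalized counts in *osm-3* TM, against 3343, 3163, 3636 and 2987 in *osm-3* vehicle, and to 1782, 3285, 2809 and 1276 in WT TM, against 3864, 3649, 5685 and 1851 in WT vehicle. Its *osm-3* groups were apart, its WT groups overlapped, and every pair was lower (−0.53 ± 0.10, adjusted p = 0.0061). *fasn-1*, the fatty acid synthase, had a difference of −0.44 in *osm-3* and −0.48 in WT (−0.46 ± 0.09 pooled, adjusted p = 0.009), which was −0.25 after the length correction (adjusted p = 0.025). The vitellogenin genes *vit-5* and *vit-2* had differences of −0.44 ± 0.13 and −0.41 ± 0.15 and were not called (adjusted p = 0.053 and 0.091).

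**Figure D4:**
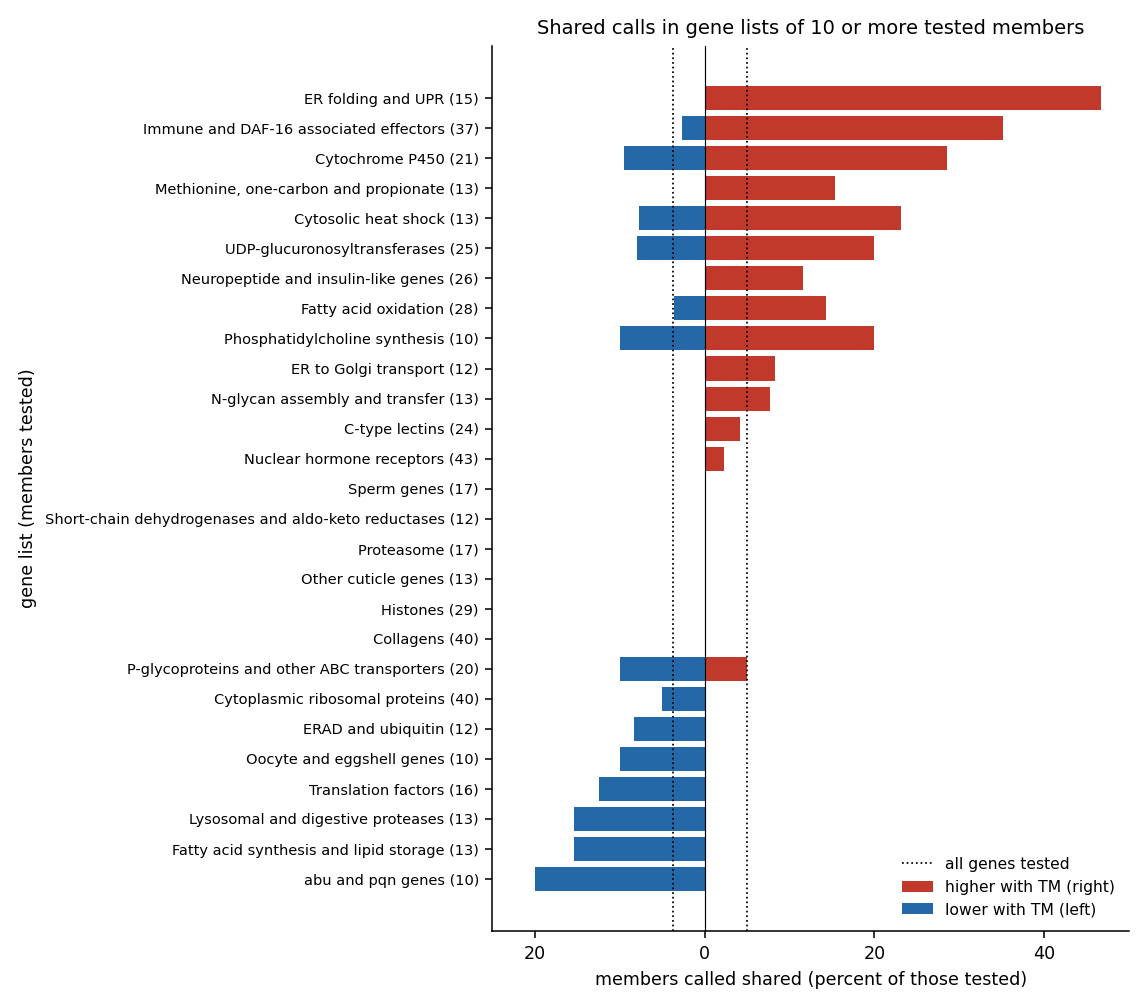
Share of tested members called shared in each gene list with 10 or more tested members (x axis, percent; red to the right for higher with TM, blue to the left for lower). Dotted lines mark the shares over all genes tested, 4.96% higher and 3.79% lower. ER folding genes (7 of 15), immune effectors (13 of 37) and cytochromes P450 (6 of 21) had the highest shares of higher genes, and no member of the collagen, histone, proteasome or sperm lists was called.

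Other stress and housekeeping lists had few calls. Of 13 cytosolic heat shock genes 3 were higher and 1 was lower (23.1% and 7.69%, against 4.96% and 3.79% of all genes tested). The higher ones were *F44E5.5* (0.57 ± 0.11, adjusted p = 0.009), *hsp-70* (0.29 ± 0.07, adjusted p = 0.03) and *hsp-12.3* (0.19 ± 0.05, adjusted p = 0.03), and *hsp-110* was lower (−0.25 ± 0.07, adjusted p = 0.041). The last 3 lost their call without *osm-3* replicate 1, 2 or 3 or WT replicate 2, *hsp-12.3* and *hsp-110* also without WT replicate 3 or 4, and *hsp-110* also without *osm-3* replicate 4 (adjusted p up to 0.096, 0.077 and 0.11), and *hsp-12.3* was not called after the length correction (0.17, adjusted p = 0.067). *F44E5.5* has a nearly identical neighbour, between which reads may have been divided. Its counts varied more within groups than with TM, from 1693 to 10534 in *osm-3* TM and from 1015 to 5268 in *osm-3* vehicle, and without the pairing it was not called (adjusted p = 0.35). The mitochondrial chaperone gene *hsp-6* was lower (−0.30 ± 0.07, adjusted p = 0.02), although not without *osm-3* replicate 2 or WT replicate 2 or 4 (adjusted p up to 0.07). *cdr-2*, of a family named for its response to cadmium, was higher (0.62 ± 0.09, adjusted p = 0.0018), and *folt-2*, a folate transporter gene, differed by 0.29 ± 0.06 (adjusted p = 0.013; 0.25 and 0.054 without WT replicate 2). *cpz-1*, a cathepsin Z gene, was lower (−0.30 ± 0.05, adjusted p = 0.0055).

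Genes of protein synthesis had few calls. Of 40 ribosomal protein genes none was higher and 2 were lower (5%, against 3.79% of all genes), namely *rpl-4* (−0.26 ± 0.07, adjusted p = 0.043) and *rla-0* (−0.23 ± 0.07, adjusted p = 0.044). None had a positive pooled difference, and their median was −0.14 (−0.13 in *osm-3* and −0.14 in WT; −0.17 to −0.02 under the alternatives), while the median varied between the 8 pairs with an SD of 0.127. Of 16 translation factors *eef-2* (−0.28 ± 0.07, adjusted p = 0.025) and *eif-6* (−0.23 ± 0.06, adjusted p = 0.04) were lower (12.5%), and the median was −0.14, with an SD of 0.153 between pairs. None of these 4 was called without *osm-3* replicate 3 or WT replicate 2, 3 or 4, *eif-6* also not without *osm-3* replicate 1 or 2, and *rpl-4* and *rla-0* only without WT replicate 1 (adjusted p otherwise up to 0.12). No gene was called among 9 aminoacyl-tRNA synthetases (median −0.13), 17 proteasome genes (−0.11) and 29 histone genes (−0.14). None of 40 collagen genes was called either, and here the genotypes went apart, with a median of 0.21 in *osm-3* and −0.31 in WT. The difference between genotypes was past the threshold in 16 of 40, against 66 (1.6%) of all genes tested.

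The lower genes were long. Their exons covered a median of 3440.5 bases (154 genes with a length), against 1219.5 in the higher genes (202) and 1467 in all genes tested (4084). With the genes ranked by exon length in 5 groups, 97 of the 816 longest, of 2527 bases or more, were shared and lower (11.9%), and 3 of the 817 shortest (0.367%). The longest named genes were *unc-89*, an obscurin-like muscle protein (25942 bases), and *him-4*, a hemicentin of the extracellular matrix (16719 bases). *him-4* differed by −0.70 in *osm-3* and −0.63 in WT (−0.67 ± 0.09 pooled, adjusted p = 0.0011) and stayed called after the length correction (−0.37, adjusted p = 0.034). *unc-89* differed by −0.51 ± 0.07 (adjusted p = 0.0013) and did not (−0.16, adjusted p = 0.13). The type IV collagen gene *let-2* (−0.45 ± 0.09, adjusted p = 0.01; −0.28 corrected) was called under both. Among genes picked after their values were seen, the RNA polymerase II subunit gene *ama-1* (−0.46 ± 0.09, −0.29 corrected, adjusted p = 0.0086 corrected) and the importin gene *imb-3* (−0.47 ± 0.09, −0.35 corrected) stayed called, while the splicing factor gene *prp-8* (−0.38 ± 0.09) did not (−0.18, adjusted p = 0.06), nor was it called without *osm-3* replicate 1, 2 or 3 or WT replicate 2 or 4 (adjusted p up to 0.081).

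The size of the relation to length differed from pair to pair. Spearman's rho between exon length and the difference, across genes and given as a description, ran from −0.61 in *osm-3* pair 2 to 0.22 in WT pair 1. In WT pair 1 the lower genes had a median difference of 0.02, against −0.57 to −0.15 in the other 7 pairs, while the higher genes had medians of 0.16 to 0.39 in all 8 pairs. These medians follow in part from the choice of the genes by the same pairs. After the length correction 180 of the 204 higher genes and 93 of the 156 lower genes kept their call. The higher genes of the results on detoxification and defence, *msra-1*, *dod-24*, *C17H12.8*, *ugt-1* and *pgp-5*, differed by 0.94, 0.76, 1.11, 0.52 and 0.55 after it, and *cyp-35A2*, *cyp-35C1* and *ugt-22* by −1.02, −0.66 and −0.61.

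**Figure D5:**
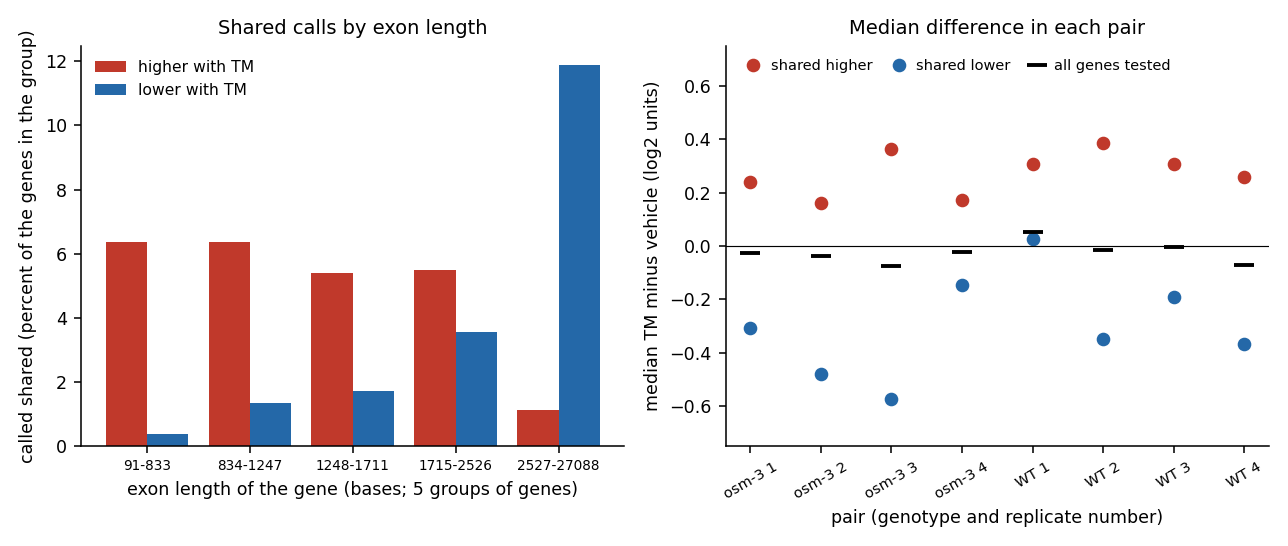
Left, share of genes called shared (y axis, percent) in 5 groups of genes by exon length (x axis, bases), red for higher and blue for lower with TM. The share of lower genes was 0.367% in the shortest and 11.9% in the longest group. Right, median TM minus vehicle difference (y axis, log2 units) of the 204 higher genes (red), the 156 lower genes (blue) and all genes tested (black) in each of the 8 pairs (x axis), with the lower genes near 0 in WT pair 1.

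By position, chromosome V held 64 of the 204 higher genes, 8.51% of its 752 tested genes, and chromosome IV 44, or 6.60% of 667. Chromosomes III and I had 2.33% and 2.89%. The lower genes were 5.93% of the genes tested on chromosome I and 4.99% on III, against 2.70% to 3.59% on II, IV, V and X. No test was made of these shares.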

How the data were processed

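Per the labels and methods, total RNA was depleted of rRNA and made into strand-specific paired-end libraries. The authors mapped trimmed reads with kallisto 0.43.0-1 to Ensembl release 94 cDNA sequences (WBcel235), summed counts per gene and used DESeq2 1.16.1. They deposited variance-stabilized log2 values for all 16 libraries, which were used here, and 4 tables of their own comparisons (mean normalized count, log2 fold change, its standard error, a test statistic, p and adjusted p), which were not used. Inverting the transformation gave whole reads within 0.01 for 100% of values, and hence the normalized counts; 0.177% to 0.531% of reads were on 1 entry without a gene name, which was left out.

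The filter kept the 4115 of 8347 genes whose average exceeded the table minimum by 1 log2 unit or more, and these were fitted in R 4.3.3 with limma 3.58.1 (pair and TM as terms, eBayes with trend, 7 residual degrees of freedom, two-sided tests, Benjamini-Hochberg adjustment over all genes tested, threshold 0.05). A second fit had a TM effect for each genotype (6 degrees of freedom) and gave the differences within and between genotypes. The fits were tested on simulated data in which 200 genes changed. The numbers were taken as pairs because deviations of same-numbered libraries from their group means correlated at 0.25 to 0.86 in all 8 cases, although *osm-3* replicate 3 (0.36 against 0.56) and WT replicate 2 (0.25 against 0.47) correlated more with another number. As libraries are biological replicates of 1 experiment, p-values refer to the spread between these cultures. Those of the pooled fit also count a difference between the genotypes' responses as spread. For *ckb-2* the SE was 0.31 in the pooled fit and 0.09 within each genotype in the second fit. Exon lengths and coordinates came from Ensembl release 115 of the same build (all but 102 of the genes matched).

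Members and gene lists were chosen with earlier results of these data known. Named were the 12 largest changes in each direction among shared genes with all 8 pairs in 1 direction, the genes past the threshold in each genotype, up to 4 called members of each list (with none called, the 2 with the smallest p), and *hsp-4*, *hsp-3*, *gale-1*, *ckb-2*, *nhr-8* and the *pgp* genes. Further called members of a list are named as examples. Alternatives were the pairing, the filter, the variance model, library weights, 2 normalizations, the scale, voom on the recovered reads, leaving out each pair and, chosen after seeing the data, a loess correction for exon length (span 0.5).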

Additional observations from a re-analysis of the deposited data

Results flagged for a closer look

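In 64 groups of 4 values, 3 had 1 value far from the others, and chance gives about 1 in 20. *osm-3* vehicle replicate 3 had 4173301 reads on named genes, fewer than the other 3 libraries of its group. WT TM replicate 2 had 12.2% of its reads on its 10 most abundant genes, below the other 3 of its group. For *C08E8.4* the WT replicate 4 pair differed by 0.54 log2 units, below the other 3 WT pairs, which reached up to 1.34, with all 4 in the same direction.

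Among the shared genes with the largest changes, 7 had a difference between the genotypes that itself passed the threshold (limma, adjusted over all genes tested). The *osm-3* response minus the WT response was −2.14 log2 units for *ckb-2*, −1.53 for *gale-1*, −1.47 for *srp-7*, −1.11 for *gad-3*, −1.07 for *F41B4.3* and −1.13 for *nlp-28*, all higher with TM, and 0.78 for *F45D11.14*, which was lower with TM. *srp-7*, which encodes a serpin, had 2943, 2758, 2352 and 2130.1 normalized counts in *osm-3* TM and 2140.2, 2357, 2224 and 2060.4 in *osm-3* vehicle, against 7628, 7950.0, 11627 and 5639 in WT TM and 2339.9, 2422, 2508 and 2270.2 in WT vehicle. Its groups overlapped in the mutants and were apart in WT. *F45D11.14* had 1315, 1520.5, 1840.0 and 1456 in *osm-3* TM and 1440.3, 1799, 1858 and 1628 in *osm-3* vehicle, against 524, 686, 1107 and 839.9 in WT TM and 1571, 1466, 1729 and 1643 in WT vehicle. Every pair was lower (−0.51 ± 0.13, adjusted p = 0.027), the call was lost without WT replicate 2, 3 or 4 (adjusted p up to 0.089), and the WT groups alone were apart.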

How the results depend on the processing

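The counts in question were 204 higher and 156 lower shared genes, 8 genes past the threshold in each genotype and 66 that responded differently in the 2 genotypes. With no replicate block these were 52, 16, 0 and 20, with 78 genes at an unadjusted p below 0.05 in each genotype, and 45 of the 79 named called genes lost their call. With the replicate numbers shared across the genotypes as 1 block they were 186, 116, 0 and 35, with 193 at an unadjusted p below 0.05 in each. Averaging the separate TM effects gave 333 lower genes. A filter at 3 log2 units, which tested 1814 genes, gave 45 higher, 5 in each genotype and 37 that differed, and the share of higher genes among its calls was 22.8%, against 56.7%. Library weights gave 334, 617, 39 and 106. Median centring gave 247 lower genes and 25 in each genotype. The count in each genotype was 22 with robust eBayes, 27 on log2 of the normalized count plus 1, 13 with voom and 20 after the length correction. Without 1 pair, the higher genes ranged from 113 (WT replicate 2) to 279 (WT replicate 1), the lower genes from 41 to 666 (the same pairs), the count in each genotype from 0 (WT replicate 2 or 3, with 145 and 191 at an unadjusted p below 0.05) to 25 (*osm-3* replicate 2), and those that differed from 37 (WT replicate 3) to 90 (*osm-3* replicate 2). The other counts stayed within 1.5 times. No shared call turned round under any alternative, and 129 genes (101 higher, 28 lower) were called under each one that tested them except no replicate block. The cause of these shifts was not tested. Genes under the filter, 4232 of 8347, have too few reads for their changes to be judged here.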

Other observations

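Some lists are not described above. Of 10 genes of phosphatidylcholine synthesis tested, 2 were higher and 1 was lower (20% and 10%, against 4.96% and 3.79% of all genes tested). The higher ones were *ckb-2* and the choline kinase gene *ckb-4*. *ckb-4* had 106, 128, 113 and 107 normalized counts in *osm-3* TM and 85.4, 82.5, 57.8 and 89.8 in *osm-3* vehicle, and 127, 159, 160.4 and 156 in WT TM and 100.3, 90.0, 83.3 and 81.3 in WT vehicle. Its groups were apart in both genotypes (0.29 ± 0.05, adjusted p = 0.0049), and its call held without any 1 pair. The lower member, *pyc-1*, encodes pyruvate carboxylase, which is not an enzyme of phospholipid synthesis (−0.23 ± 0.06, adjusted p = 0.039). It was not called without any 1 *osm-3* pair or WT replicate 2 or 4 (adjusted p up to 0.11), nor after the length correction (−0.11, adjusted p = 0.24).

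The sodium pump gene *eat-6* was the 1 lower gene of 5 in its list (−0.30 ± 0.07, adjusted p = 0.027), and was not called without *osm-3* replicate 2 or 3 or WT replicate 2, 3 or 4 (adjusted p up to 0.086). Of 10 *abu* and *pqn* genes tested, whose proteins are rich in glutamine and asparagine, 2 were lower (20%, against 3.79% of all genes tested). These were *pqn-20* (−0.45 ± 0.10, adjusted p = 0.02) and *pqn-15* (−0.27 ± 0.07, adjusted p = 0.036). Both lost their call without *osm-3* replicate 2 or 3 or WT replicate 2 or 4 (adjusted p up to 0.066 and 0.11), and *pqn-15* also without *osm-3* replicate 1 or WT replicate 3 and after the length correction (−0.08, adjusted p = 0.28). Of 13 lysosomal and digestive proteases 2 were lower (15.4%, against 3.79% of all genes tested), *cpz-1* and *asp-13* (−0.52 ± 0.12, adjusted p = 0.024). The second was not called without WT replicate 2, 3 or 4 (adjusted p up to 0.071). *asp-13* differed between the genotypes, with −0.16 in *osm-3* and −0.87 in WT (0.71 ± 0.15, adjusted p = 0.028). Of 26 neuropeptide and insulin-like genes tested, the 3 called (11.5%, against 4.96% of all genes tested higher) were the antimicrobial *nlp-28*, *nlp-29* and *nlp-31* given above. None of 5 genes of amino acid and serine synthesis was called (median −0.05).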
